A study of Mus musculus with 8 samples.

Results

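The NF-κB arm of inflammatory signalling was described through 10 genes in RNA sequencing of the mouse cortex and hippocampus. These are the subunits Rela, Nfkb1, Relb and Nfkb2, the feedback regulators Nfkbia, Nfkbie, Tnfaip3, Bcl3 and Birc3, and the ligand Tnf. Members were taken by name, as the rows of the deposited gene table whose symbol equals one of these, and all 10 were found, each under 1 identifier, among 43346 listed genes. Of the 10, 9 passed the filter on low counts and were among the 20987 genes tested, and Tnf did not pass. The mice were 1.5 months old and carried either green fluorescent protein (GFP, 4 animals) or a fusion of GFP with a run of 100 glycine-arginine dipeptides (GFP-GR100, 4 animals), with 2 females and 2 males in each group. Poly(GR) is a dipeptide repeat protein made from the expanded C9orf72 repeat of frontotemporal dementia and amyotrophic lateral sclerosis. The repeat was cloned into an adeno-associated virus plasmid in frame with GFP, so that both groups share the GFP part. The weight of cortex and hippocampus was 111.4 to 126.6 mg in GFP and 71.9 to 85.1 mg in GFP-GR100. Strain, promoter, route and age at delivery were not given in the sources used here. Each library came from 1 animal, libraries 1 and 2 of each group being female and 3 and 4 male.

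NF-κB is a family of dimeric transcription factors that rests in the cytoplasm, held there by IκB inhibitors. Signals from receptors for Tnf, interleukin-1 or microbial products activate a kinase complex that marks IκB for destruction, and the freed dimers enter the nucleus. Among the genes they turn on are their own inhibitors, so that transcripts such as Nfkbia and Tnfaip3 serve as feedback regulators and as common readouts of the pathway. The type I interferon arm runs through other factors, among them Stat2 and Irf9, in a complex that binds the interferon-stimulated response element (ISRE), and has its own feedback regulators such as Usp18 and Socs1. In the brain, microglia respond through both arms.

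The upstream regions of the feedback genes Nfkbia, Tnfaip3 and Bcl3, which held a κB match, are shown beside those of the interferon feedback gene Socs1 and the interferon-stimulated gene Oas1g, since the arms are read through different DNA motifs. The windows of the feedback genes Nfkbie and Birc3 held no match to either pattern and are not printed. The 250 bases before the annotated start were searched on both strands for GGNNTTTCC, a common form of the κB motif, and for GAAANNGAA, the core of the ISRE. On the opposite strand these read GGAAANNCC and TTCNNTTTC. The patterns can overlap one another, although no κB match overlaps an ISRE match in the windows printed here. Sequences are from RefSeq on build GRCm38.p6, written 5′ to 3′ on the strand of the gene in lower case, with matches to either pattern in capitals. Nfkbia lies at chr12:55492648-55492897, minus strand, Tnfaip3 at chr10:19015411-19015660, minus strand, Bcl3 at chr7:19822756-19823005, minus strand, Socs1 at chr16:10785537-10785786, minus strand and Oas1g at chr5:120887614-120887863, minus strand.
Nfkbia: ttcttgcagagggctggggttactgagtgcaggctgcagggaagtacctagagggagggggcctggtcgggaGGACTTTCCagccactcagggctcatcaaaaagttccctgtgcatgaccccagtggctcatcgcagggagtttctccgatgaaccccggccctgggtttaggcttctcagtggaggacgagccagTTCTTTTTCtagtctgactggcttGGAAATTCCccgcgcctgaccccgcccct
Tnfaip3: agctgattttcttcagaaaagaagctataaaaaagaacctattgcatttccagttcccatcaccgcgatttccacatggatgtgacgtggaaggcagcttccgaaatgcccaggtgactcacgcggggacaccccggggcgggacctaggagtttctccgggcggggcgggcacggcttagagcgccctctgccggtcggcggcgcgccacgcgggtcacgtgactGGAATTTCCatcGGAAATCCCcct
Bcl3: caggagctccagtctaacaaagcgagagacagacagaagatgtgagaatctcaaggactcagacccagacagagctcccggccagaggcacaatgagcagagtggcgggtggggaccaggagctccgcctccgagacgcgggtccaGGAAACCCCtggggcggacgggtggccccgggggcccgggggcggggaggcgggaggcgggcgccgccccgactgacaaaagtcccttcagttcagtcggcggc
Socs1: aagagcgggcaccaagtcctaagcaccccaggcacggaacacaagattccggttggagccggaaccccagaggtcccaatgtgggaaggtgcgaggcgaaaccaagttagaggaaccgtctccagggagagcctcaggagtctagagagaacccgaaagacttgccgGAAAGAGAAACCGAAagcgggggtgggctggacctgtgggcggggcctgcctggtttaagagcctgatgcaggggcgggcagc
Oas1g: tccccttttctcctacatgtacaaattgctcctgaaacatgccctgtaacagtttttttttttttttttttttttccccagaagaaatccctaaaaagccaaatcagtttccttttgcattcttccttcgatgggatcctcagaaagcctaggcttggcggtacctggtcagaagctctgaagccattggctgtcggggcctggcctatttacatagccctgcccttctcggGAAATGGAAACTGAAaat

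The κB pattern was found upstream of 4 of the 8 members with an entry, namely Nfkb2, Nfkbia, Tnfaip3 and Bcl3, against 4.93% of all 32851 windows of this length. Nfkbia held GGACTTTCC, a κB match, from 178 to 170 bases before its start and GGAAATTCC, a match on the opposite strand, from 29 to 21 bases before it. Tnfaip3 held a pair of matches between 24 and 4 bases before the RefSeq start of the window printed above. These matches lie inside the gene as deposited, whose start is placed further upstream. The other window of Tnfaip3 held no match to either pattern. The ISRE core was found upstream of 1 of the 8 members, Nfkbia, against 7.13% of all windows. Of 28 interferon-stimulated genes with an entry, 16 held the ISRE core and 4 the κB pattern. Socs1 and Oas1g each held a pair of ISRE cores that overlap by 3 bases. Stat2 also held the ISRE core, while the windows of the interferon genes Irf9 and Irf7 held no match to either pattern. The Irf9 windows lie inside the gene as deposited, so that bases upstream of its deposited start were not searched. Nfkb1 and Relb were not matched in the promoter table. Where a gene has several annotated starts, a match in any of its windows was counted, which raises its chance of a match over that of a single window.

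The annotation places the members as given below, on build mm10 as named by the submitters' processing notes. Total counts ran from 65880460 to 89113010 per library. Reads at Yam1, AY036118 and Lars2, which contain ribosomal RNA sequence, made up 6.74% to 11.4% of counts for GFP females and 8.77% to 9.83% for GFP-GR100 males, and between 2.76% and 3.8% for the other 4 libraries. GFP 3 had the highest summed level of microglia markers in its group (766 against 537 to 565 CPM, the count scaled by effective library size), and GFP-GR100 4 the lowest sum of neuron markers of all libraries (7230 against 8320 to 9430 CPM). Neuronal markers were abundant, among them Slc17a7 of cortical and hippocampal excitatory neurons, which stood at 1120 ± 103 CPM in GFP and 1050 ± 216 CPM in GFP-GR100 (SD, n = 4).

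None of the 9 tested members passed the test between GFP-GR100 and GFP. At an adjusted p of 0.05 in edgeR's quasi-likelihood test, 0 of 9 were called, where 2.52% of all tested genes were. At an unadjusted p under 0.05, 5 members were higher and 0 lower (Nfkb1, Nfkb2, Nfkbie, Bcl3 and Birc3), against 8.23% higher and 7.37% lower among all tested genes. With DESeq2 3 were called higher (Nfkbie, Bcl3 and Birc3), where it called 3.45% of all genes higher and 4.4% in either direction. With no filter on low counts 2 were called, Bcl3 and Birc3, against 4.76% of all genes. Bcl3 alone was called with the ribosomal RNA share as a covariate (background 4.2%), without GFP 3 and GFP-GR100 4 (3.31%), without GFP 3 (2.77%) and without GFP-GR100 3 (1.55%). Limma-voom and limma-trend on RPKM called 0 (each 2.54%), as did edgeR with median-of-ratios size factors (2.52%), a mean of at least 1 CPM (2.9%) or no sex covariate (1.97%). Leaving out GFP 1, GFP 2, GFP 4, GFP-GR100 1, GFP-GR100 2 or GFP-GR100 4 gave 0, with backgrounds of 2.09%, 2.1%, 1.78%, 2.63%, 1.52% and 2.26%. The median log2 fold change of the 9 was 0.23, against -0.0245 for all tested genes. Since this is bulk tissue, fewer cells of a type and less RNA per cell cannot be told apart.

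**Figure D1:**
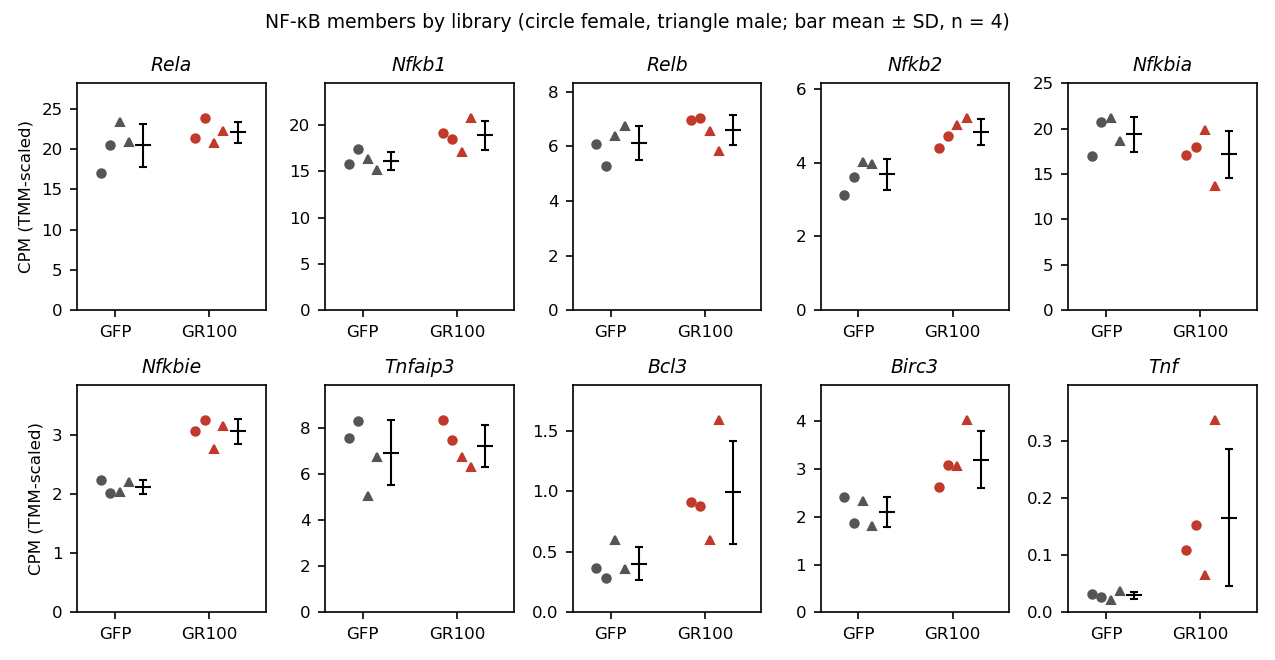
CPM (TMM-scaled) of the 10 members, 1 point per library, circles for females and triangles for males, with the mean ± SD of each group (n = 4) as a bar; GR100 stands for GFP-GR100. The groups overlap for Rela, Nfkb1, Relb, Nfkbia, Tnfaip3 and Bcl3, and all GFP-GR100 values lie above the GFP values for Nfkb2, Nfkbie, Birc3 and Tnf.

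Per length, the members differed widely in level. In the GFP group the deposited RPKM (reads scaled by gene length and library depth) was highest for Nfkbia (12 ± 1.59, SD, n = 4), the IκBα inhibitor, followed by Rela (7.39 ± 1.22), Nfkb1 (3.30 ± 0.247) and Relb (1.54 ± 0.188). Nfkb2 (1.10 ± 0.164) and Tnfaip3 (0.932 ± 0.175) overlapped in range, as did Tnfaip3 and Nfkbie (0.856 ± 0.0396). Birc3 (0.410 ± 0.0553), Bcl3 (0.159 ± 0.0584) and Tnf (0.0177 ± 0.00382) were lowest, and each of these was separated from the next. In this order the first 4 members were separate in range, so that transcripts of the canonical pair Rela and Nfkb1 stood above those of the noncanonical pair Relb and Nfkb2.

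The activating subunits Rela and Relb did not pass, and their groups overlapped. Rela, the main transactivating subunit (chromosome 19, 5637483 to 5648130), was at 17.0, 20.5, 23.4 and 20.9 CPM in GFP 1 to 4 and at 21.4, 23.9, 20.8 and 22.2 CPM in GFP-GR100 1 to 4. The groups overlapped, GFP 1 being the lowest library, and the log2 fold change was 0.11 (95% interval -0.11 to 0.34, adjusted p = 0.599). Relb, the partner of processed Nfkb2 in the noncanonical pathway (chromosome 7, 19606217 to 19629438), was at 6.10, 5.27, 6.39 and 6.75 CPM in GFP and at 6.95, 7.05, 6.56 and 5.83 CPM in GFP-GR100. Here too the groups overlapped, and the highest GFP libraries were male while the highest GFP-GR100 libraries were female. Its log2 fold change was 0.11 (interval -0.16 to 0.38, adjusted p = 0.696). Intervals are those of the edgeR fit for single genes.

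The precursor subunits had larger fold changes but did not pass either. Nfkb1, precursor of the DNA-binding partner of Rela (chromosome 3, 135584655 to 135691547), was at 15.8, 17.4, 16.3 and 15.1 CPM in GFP and at 19.1, 18.5, 17.1 and 20.8 CPM in GFP-GR100. A single GFP library, GFP 2, lay above the lowest GFP-GR100 library, and the log2 fold change was 0.23 (interval 0.02 to 0.43, adjusted p = 0.270). Nfkb2, precursor of the noncanonical subunit (chromosome 19, 46304737 to 46312090), was at 3.13, 3.61, 4.03 and 3.97 CPM in GFP and at 4.41, 4.72, 5.01 and 5.22 CPM in GFP-GR100. All 4 GFP-GR100 libraries lay above all GFP libraries. Nfkb2 shares 4 bases with the abundant Psd on the opposite strand. The log2 fold change was 0.39 (SE 0.12, interval 0.13 to 0.66, adjusted p = 0.142), and 3 of the 9 members had groups apart in this direction, against 5.03% of all tested genes.

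The feedback inhibitors Nfkbia and Tnfaip3 had fold changes of opposite sign near 0. Nfkbia, which retains Rela dimers in the cytoplasm and is a direct target of them (chromosome 12, 55489411 to 55492647), was at 17.0, 20.7, 21.2 and 18.6 CPM in GFP and at 17.1, 18.0, 19.8 and 13.7 CPM in GFP-GR100. The groups overlapped, with the lowest value in GFP-GR100 4. Its log2 fold change was -0.17 (interval -0.43 to 0.09, adjusted p = 0.498), the 1 value below 0 among the members, and -0.01 without GFP 3 and GFP-GR100 4. Tnfaip3, a ubiquitin-editing enzyme that ends signalling from Tnf and Toll-like receptors (chromosome 10, 19000910 to 19015657), was at 7.57, 8.32, 5.03 and 6.75 CPM in GFP and at 8.35, 7.48, 6.76 and 6.30 CPM in GFP-GR100. Females stood above males in each group, and the GFP range enclosed nearly all of the GFP-GR100 values. The log2 fold change was 0.07 (interval -0.20 to 0.34, adjusted p = 0.803). The windows printed above for both genes carry κB matches.

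Nfkbie and Bcl3 had larger fold changes, which edgeR did not call. Nfkbie, the IκBε inhibitor (chromosome 17, 45555716 to 45563169), was at 2.24, 2.01, 2.03 and 2.21 CPM in GFP and at 3.07, 3.25, 2.76 and 3.14 CPM in GFP-GR100. The groups lay apart and each was narrow. The log2 fold change was 0.52 (SE 0.14, interval 0.21 to 0.83), a ratio of 1.44, with an adjusted p of 0.0872 in edgeR and 0.0282 in DESeq2 (0.0282 to 0.265 over 17 alternatives). Bcl3, an atypical nuclear IκB that works with Nfkb1 and Nfkb2 homodimers (chromosome 7, 19808462 to 19822770), was at 0.363, 0.284, 0.599 and 0.360 CPM in GFP and at 0.909, 0.875, 0.594 and 1.59 CPM in GFP-GR100. The groups touched, since GFP 3 was level with GFP-GR100 3. Its log2 fold change of 1.31 (SE 0.33, interval 0.60 to 2.03) was the largest among the 9 tested members, from 21 to 54 counts per GFP library and 46 to 109 per GFP-GR100 library. Bcl3 is overlapped on the opposite strand by Gm16175 and Gm16174, at means of 0.0836 and 0.018 CPM, and without a stated strand setting reads there cannot be told apart. The adjusted p was 0.0593, and 6 of 16 alternatives called it (0.000179 to 0.195), among them those without GFP 3 (0.0417) or without GFP-GR100 3 (0.0171).

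Birc3 and Tnf were the remaining members. Birc3, an inhibitor of apoptosis and ubiquitin ligase at the Tnf receptor (chromosome 9, 7848699 to 7873186), was at 2.41, 1.86, 2.33 and 1.81 CPM in GFP and at 2.62, 3.07, 3.05 and 4.02 CPM in GFP-GR100. The groups lay apart, with the highest value in GFP-GR100 4, and the log2 fold change was 0.59 (SE 0.17, interval 0.21 to 0.97, adjusted p = 0.118; 0.0239 to 0.296 over 17 alternatives). Tnf, the cytokine that starts this pathway (chromosome 17, 35199381 to 35202007), was barely detected, with 2, 2, 2 and 3 counts in GFP 1 to 4 and 10, 12, 5 and 23 counts in GFP-GR100 1 to 4. All 4 GFP-GR100 counts were above the GFP counts, GFP-GR100 4 being the highest. The summed counts of 50 against 9 gave a ratio of 5.37 at equal depth (exact 95% interval 2.61 to 12.4, for counting error only), and in the fit with no filter on low counts its adjusted p was 0.0720. Bcl3, Birc3 and Tnf were all highest in GFP-GR100 4, the library in which Nfkbia was lowest and neuron markers were lowest.

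No difference in response between females and males passed the test for any member. With an interaction term for sex, 0 of 9 passed by edgeR and 0 by DESeq2, and 0 of 9 had an unadjusted p under 0.05. Among all tested genes 0.0524% passed by edgeR, 2.76% passed by DESeq2, 4.22% passed when low counts were kept, 0.0607% passed above a mean of 1 CPM, and 16.4% had an unadjusted p under 0.05. The share of counts at ribosomal RNA sequence was high in GFP females and GFP-GR100 males, so this interaction and that share cannot be told apart. The smallest p was that of Rela, at 0.106 (adjusted p = 0.407), with a log2 fold change of 0.27 in females and -0.04 in males. Bcl3 was at 1.47 and 1.17 and Nfkbie at 0.57 and 0.48 in females and males.

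Most of the other components of the pathway also did not pass. The list held 29 further subunits, inhibitors, kinases and adaptors, of which 28 were tested, 2 rose and 0 fell, against 2.19% higher and 0.324% lower among all genes, and the median log2 fold change was 0.06. Ikbke, a kinase that phosphorylates interferon regulatory factors as well as NF-κB components, was at 0.980 ± 0.143 CPM in GFP and rose to 1.99 ± 0.373 CPM in GFP-GR100 (SD, n = 4), a log2 fold change of 1.01 with an SE of 0.20 and an adjusted p of 0.0168. Rnf31, the catalytic subunit of the linear ubiquitin chain assembly complex, was at 17.8 ± 1.92 CPM and rose to 24.7 ± 3.27 CPM, a log2 fold change of 0.47 with an SE of 0.09 and an adjusted p of 0.0139. The table places Rnf31 and the interferon gene Irf9 on chromosome 14 with 123 shared bases on the same strand, so that reads there could be split between them. Without GFP-GR100 2 neither was called (0.0609 and 0.0719), and without GFP-GR100 3 Ikbke was not called (0.0591). Rnf31 was also not called with no sex covariate (0.0791), nor Ikbke with limma-trend on RPKM (0.0684).

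Several receptors that feed the pathway rose. Against 2.19% higher and 0.324% lower among all tested genes, 5 of 22 tested ligands, receptors and adaptors rose and 0 fell. Both receptors of Tnf were among them: Tnfrsf1a was at 8.61, 8.41, 9.82 and 9.37 CPM in GFP and at 14.3, 12.5, 13.9 and 14.1 CPM in GFP-GR100 (adjusted p = 0.00345, log2 fold change 0.60 ± 0.09 SE). Tnfrsf1b, the Tnf receptor of immune and endothelial cells, was at 4.68, 4.62, 4.51 and 3.50 CPM in GFP and at 7.82, 8.09, 8.31 and 9.16 CPM in GFP-GR100 (0.95, SE 0.13, adjusted p = 0.00136). For both receptors the groups lay apart. Tlr2, a receptor for bacterial lipoproteins, rose from 1.65 ± 0.71 to 6.08 ± 0.7 CPM (1.88, SE 0.27, adjusted p = 0.00436). The B cell survival factor Tnfsf13b rose from 0.391 ± 0.0745 to 0.981 ± 0.170 CPM and the cytokine Il1a from 0.812 ± 0.204 to 1.71 ± 0.0758 CPM. Il1a is overlapped by Gm14023 on the opposite strand (0.498 CPM). The Il1a call was lost without GFP 2, GFP 4, GFP-GR100 2 or GFP-GR100 3 (adjusted p from 0.0538 to 0.0609). The ligands Lta, Cd40lg and Tnfsf11 had at most 15 counts in any library and were not tested.

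Among textbook target genes other than the members, some chemokines and survival genes rose and many others did not pass. Of 34 listed, 26 were tested, 8 rose and 0 fell, with a median log2 fold change of 0.36. Among all tested genes 2.19% rose and 0.324% fell. Cxcl13, a B cell attractant, was at 0.0124 to 0.222 CPM in GFP and 0.926 to 2.58 CPM in GFP-GR100. Ccl3, which attracts myeloid and T cells, was at 0.0810 to 0.577 and 1.22 to 2.21 CPM, and its neighbour Ccl4 at 0.0945 to 0.377 and 0.920 to 1.59 CPM. Csf1, the growth factor of microglia, rose from 18.5 ± 0.987 to 29.1 ± 2.16 CPM (adjusted p = 0.00114). Bcl2a1b, an anti-apoptotic gene with near-identical copies and a same-strand overlap with Gm29094, so that its counts are uncertain, rose from 0.646 ± 0.175 to 2.1 ± 0.288 CPM. The other 3 that rose, named after their values were seen, were the adhesion gene Icam1, Ptges and the copy Bcl2a1d. With a mean of at least 1 CPM required, 4 of this list were called, against 2.68% higher among all genes at this setting. Cxcl13, Ccl3, Ccl4 and Bcl2a1d were below that level and were not tested there. Of the 8 not tested, Il6, Cxcl1, Cxcl2, Ccl20, Sele and Csf2 had at most 9 counts in any library. The other two, the acute phase gene Saa3 and the cytokine gene Il12b, had 6 and 7 counts summed over GFP and 57 and 28 over GFP-GR100, 39 of the Saa3 counts being in GFP-GR100 1.

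**Figure D2:**
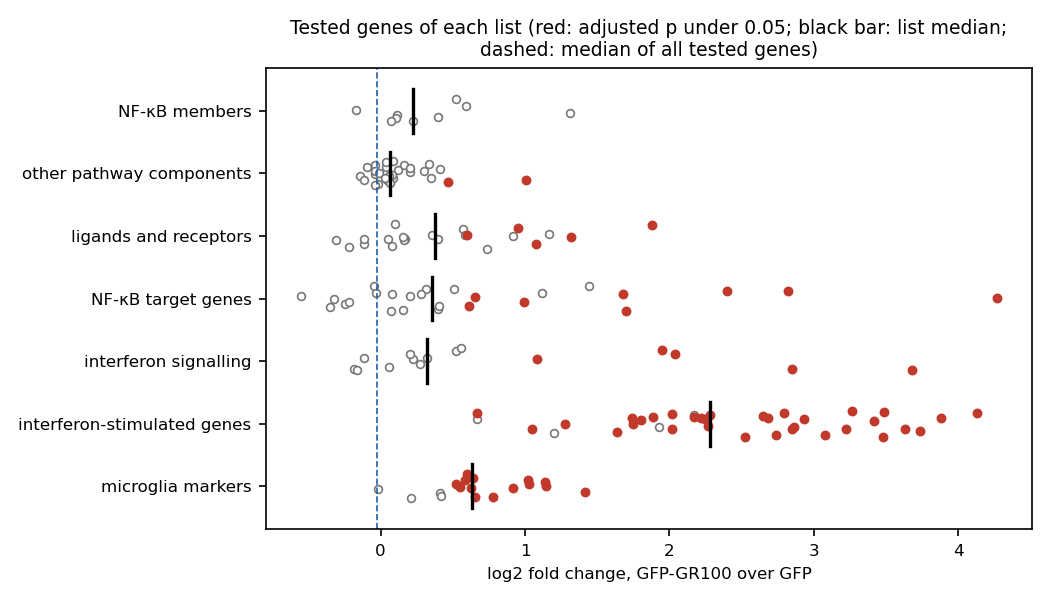
Log2 difference between GFP-GR100 and GFP for each tested gene of 7 lists, with called genes filled in red, the list median as a black bar and the median of all tested genes (-0.0245) as a dashed line. The medians are 0.23 for the members, 0.36 for the NF-κB targets and 2.28 for the interferon-stimulated genes.

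The interferon arm gave the contrast. Of 37 interferon-stimulated genes, all tested, 33 rose and 0 fell, with a median log2 fold change of 2.28. Of the 9 members 0 were called, with a median of 0.23. Among all tested genes 2.19% rose and 0.324% fell. The lists were chosen with earlier results of these data known, so the contrast in counts and medians is a description. The 37 are target genes, while the members are mostly signalling and feedback genes, some of which, such as Nfkbia, are also targets of NF-κB. Of 15 tested signalling and feedback genes of the interferon pathway 5 rose and 0 fell (33.3%), with a median of 0.32. The NF-κB targets other than the members, with 8 of 26 called and a median of 0.36, are the NF-κB list closest in kind to the 37. Among those 8, Cxcl13, Ccl3, Ccl4 and Bcl2a1d passed the filter only with their GFP-GR100 counts. Of the 37, the 5 with the smallest p were Mx2, Oas2, Slfn8, Oas1g and Ifit2, with log2 fold changes of 2.86, 3.27, 2.79, 3.48 and 1.75. Bst2, Gbp2, Zbp1 and Ifitm3 did not pass in edgeR (named after their values were seen). Their log2 fold changes were 2.172, 0.665, 1.925 and 1.199, and the groups lay apart for all of these but Gbp2. DESeq2 and limma-voom each called 36 of the 37 higher, against 3.45% and 2.27% of all tested genes. Among the signalling genes Stat2, Irf9, Irf7 and Usp18 rose. The receptor genes Ifnar1, Ifnar2, Ifngr1 and Ifngr2 and the kinase genes Jak1, Jak2 and Tyk2 did not pass, with log2 fold changes from -0.19 for Jak1 to 0.27 for Ifngr1, nor did Irf1 (0.52), Socs1 (0.56) and Socs3 (0.32). The ligands Ifnb1 and Ifng had 4 and 6 counts summed over the 4 GFP-GR100 libraries and 0 and 2 over the GFP libraries.

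**Figure D3:**
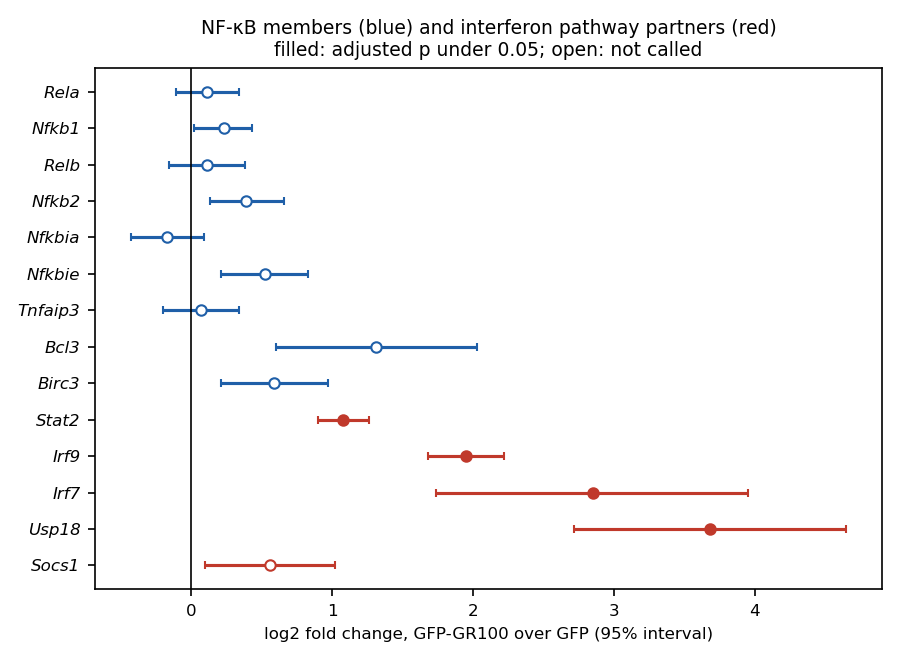
Log2 difference between GFP-GR100 and GFP with its 95% interval for the 9 tested NF-κB members (blue) and 5 genes of the interferon pathway (red), filled where the adjusted p is under 0.05. The upper bounds for Rela, Nfkb1, Relb, Nfkb2, Nfkbia, Nfkbie, Tnfaip3 and Birc3 lie at or below 0.97, and the lower bounds for Irf9, Irf7 and Usp18 lie at or above 1.68. Outside this gap, Bcl3 spans 0.60 to 2.03, Stat2 spans 0.90 to 1.26 and Socs1, not called, spans 0.10 to 1.02.

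The arms were also set side by side in pairs of genes matched by role, as the log2 ratio of their counts within each library, which does not depend on library scaling. The interferon partners were picked with their rise in these libraries known, which largely fixes the direction of these ratios, so they are a description and no p is given. For the transcription factors Stat2 to Nfkb1, the log2 ratio was 0.45, 0.44, 0.29 and 0.52 in GFP and 1.20, 1.46, 1.40 and 1.06 in GFP-GR100. The mean went from 0.42 ± 0.10 to 1.28 ± 0.18 (SD, n = 4), and for Irf9 to Relb from 0.93 ± 0.29 to 2.77 ± 0.14. For Irf7 to Nfkb2 it went from 0.19 ± 0.93 to 2.82 ± 0.21, although the edgeR call of Irf7 itself (adjusted p = 0.0360) was lost in 8 of 17 alternatives, including those without GFP 1, GFP 2 or any 1 of the GFP-GR100 libraries (up to 0.140). In each of these 3 pairs all GFP-GR100 libraries lay above all GFP libraries.

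The feedback inhibitors split by pair. Usp18, which shuts off the interferon receptor, was below Nfkbia in count in all GFP libraries, with log2 ratios of -2.78, -3.66, -2.73 and -4.52. In GFP-GR100 it was above Nfkbia in all libraries, with log2 ratios of 0.46, 0.62, 0.55 and 0.77, an increase of 4.02. Socs1 to Tnfaip3 had ratios of -2.79, -3.26, -1.83 and -2.97 in GFP and -2.29, -2.46, -2.0 and -2.1 in GFP-GR100. These overlapped through GFP 3, and the difference of 0.50 became 0.79, with the groups apart, without GFP 3. Socs1 itself was at 1.05 ± 0.260 and 1.55 ± 0.170 CPM (adjusted p = 0.233 in edgeR).

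**Figure D4:**
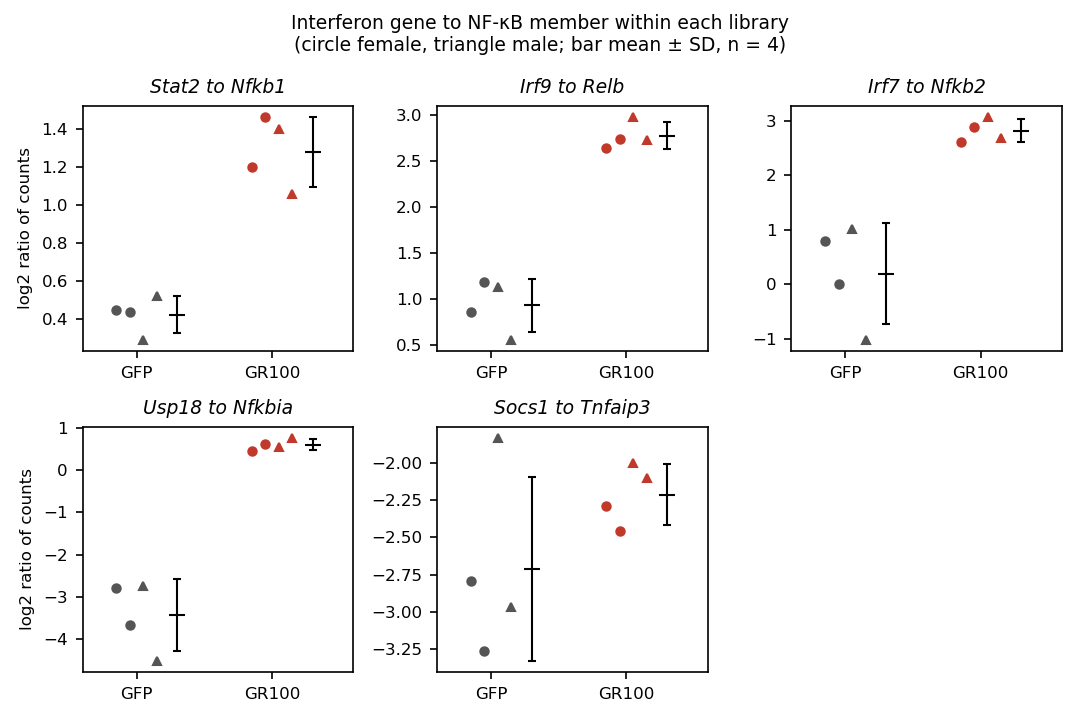
Log2 ratio of the counts of an interferon gene to those of an NF-κB member within each library for 5 role-matched pairs, circles for females and triangles for males, with mean ± SD (n = 4) as a bar. The groups lie apart in 4 pairs and overlap for Socs1 to Tnfaip3.

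Most microglia markers rose and the choroid plexus sums were lower, while edgeR called few or no markers of the other cell types. The shares of all tested genes were 2.19% higher and 0.324% lower by edgeR, and 3.45% and 0.953% by DESeq2. At an unadjusted p under 0.05 they were 8.23% and 7.37%, and 45.4% had a log2 fold change above 0. Of 18 microglia markers 14 rose and 0 fell, with a summed level of 537 to 766 CPM in GFP and 926 to 1060 CPM in GFP-GR100. Of 9 tested monocyte and neutrophil markers 2 rose, with sums over all 12 of 9.47 to 14.6 and 18.1 to 27.5 CPM, and all 9 had log2 fold changes above 0. The 2 were Plac8 (1.63) and Csf3r (1.30), named after their values were seen. Csf3r made up most of the monocyte and neutrophil sums, at 5.67 to 8.47 CPM in GFP and 12.9 to 19.5 CPM in GFP-GR100. S100a8, S100a9 and Ngp had log2 fold changes of 0.88, 0.80 and 0.79 and did not pass, while Camp, Ly6g and Retnlg were not tested, at or below 0.101 CPM in every library, with Ly6g at 0 in all GFP-GR100 libraries. Of 6 border macrophage markers, 11 tested lymphocyte markers and 12 endothelial markers 0 were called by edgeR. At an unadjusted p under 0.05 they had 1, 4 and 1 higher and 0, 0 and 3 lower, and with DESeq2 0, 0 and 1 were called. Sums ran from 9.58 to 12.4 CPM in GFP and from 10.8 to 14.9 CPM in GFP-GR100 for border macrophages. For lymphocytes they ran from 15.4 to 20.2 and from 19.9 to 24.8 CPM, and for endothelium from 251 to 320 and from 252 to 318 CPM. Cd4 made up most of the lymphocyte sums, at 12.9 to 14.2 CPM in GFP and 14.3 to 19.2 CPM in GFP-GR100. The T cell genes Cd3e, Cd3d and Cd3g were at or below 0.644 CPM in every library. Of 12 astrocyte markers 1 rose, and of 8 choroid plexus markers 1 fell by edgeR, while DESeq2 called 7 lower and 7 were lower at an unadjusted p under 0.05, with sums of 128 to 367 CPM in GFP and 32.6 to 88.9 CPM in GFP-GR100. Of 12 neuron and 9 oligodendrocyte markers 0 were called by edgeR, with 3 and 4 lower at an unadjusted p under 0.05, and DESeq2 called 0 and 2 lower. The part of these cells in the values of Nfkbie, Bcl3, Birc3, Tnf, Tlr2, Ccl3 and the other genes above was not tested.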

How the data were processed

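RNA from the cortex and hippocampus of 8 mice was sequenced from both ends after stranded total RNA library preparation, per the labels. Whole-number counts and RPKM values per gene are in 1 table deposited by the authors. TopHat2 version 2.1.0 and build mm10 are named, per the submitters' processing notes, with CASAVA, DESeq2 and R version 3.4.1. Counter, annotation and strand setting: not given in the sources used here. Gene positions and lengths (in bases) are as deposited.

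Counts were fitted with edgeR version 4.0.16 in R version 4.3.3. Low genes were removed with filterByExpr (minimum count 10, minimum total 15). Counts were scaled by TMM and tested by the robust quasi-likelihood test with sex and group as terms, and p-values were adjusted by Benjamini-Hochberg over all 20987 genes. CPM values are TMM-scaled. 3 counts correspond to 0.0329 to 0.0495 CPM. Pair ratios used log2(count + 0.5) and are given without the planned exact permutation test, since the partners were chosen with their rise known, and 1 pair is not reported here. Replicates were numbered in accession order. Alternatives were size factors, other filters, DESeq2 version 1.42.0, limma version 3.58.1 (voom, and trend on log2(RPKM + 0.1)), other covariates and leaving out libraries. Members, lists, pairs and named genes (all members, pair partners, and up to 5 called genes with the smallest p per pathway list) were chosen with earlier results of these data known, and the promoter patterns after the fits. Ifit3b was matched through its GENCODE M21 symbol.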

Additional observations from a re-analysis of the deposited data

Results flagged for a closer look

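Over 66 groups of 4 libraries, 3 held a library far from the other 3, where chance gives about 1 in 20 groups, and 0 of these were members. Tnfrsf1b was at 3.50 CPM in GFP 4 against 4.51 to 4.68 CPM in the other GFP libraries. Il1a was at 1.82 CPM in GFP-GR100 1 against 1.65 to 1.68 CPM in the others of its group. Oas2 was at 0.596 CPM in the lowest GFP library against 1.19 to 1.26 CPM in the others.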

How the results depend on the processing

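The count of called members, 0 by edgeR, was 3 with DESeq2 (Nfkbie, Bcl3 and Birc3), 2 with no filter on low counts (Bcl3 and Birc3), and 1 (Bcl3) with the ribosomal RNA share in the model or without GFP 3 and GFP-GR100 4. Leaving out 1 library gave 0 to 1, with Bcl3 called without GFP 3 or GFP-GR100 3. It stayed at 0 with median-of-ratios size factors, limma-voom, limma-trend on RPKM, no sex covariate and a mean of at least 1 CPM, where Bcl3 was not tested. Over 17 alternatives, 0 called Rela, Relb, Nfkb1, Nfkb2, Nfkbia or Tnfaip3, while all 17 called Stat2, Irf9 and Usp18. The log2 fold change of Rela ranged from 0.03 to 0.21 and that of Nfkbia from -0.27 to -0.01. The difference in the log2 ratio of Socs1 to Tnfaip3, 0.50, ranged from 0.32 to 0.79 with 1 library left out. The sex difference count stayed at 0 in its 4 alternatives. The number of other pathway components that rose was 0 without GFP-GR100 2 and 1 without GFP-GR100 3 or with no sex covariate. No paired analysis was possible because the labels give no replicate numbers shared between the groups. Counts of this size leave Tnf near the limit of detection. The p-values set the difference between groups against the spread between animals as each fit estimated it, with 4 animals a group.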
